A study of Saccharomyces cerevisiae with 21 samples.

Results

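The cytosolic ribosomal protein genes of budding yeast are described here through drying and rehydration, gene by gene and as pairs of duplicated copies. A gene was taken when a probe set of the array, the group of short oligonucleotides that measures one transcript, is annotated with that ribosomal protein gene alone: RPL or RPS with a number and an optional A or B, or the stalk genes RPP0, RPP1A, RPP1B, RPP2A and RPP2B. 105 of the 9335 probe sets met this rule and stand for 80 genes, each read from its brightest probe set. They are 43 genes of the large subunit (RPP0 among them), 33 of the small subunit and the 4 genes of the acidic stalk proteins. A further 54 such genes share a probe set with their duplicate copy, so that the copies cannot be read apart. RPL40A, RPL40B, RPL41A and RPL41B are among these and get no values of their own. 31 pairs had a separate probe set for both copies, and 18 of the 80 genes have no duplicate. In 32 of the 80 genes the probe set name carries the suffix _f or _i, taken here as a mark that related sequences may bind to it, and in 48 it carries none.

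The cells were BY4743, a diploid strain of the S288C background, grown in rich YPD medium at 30 °C to an A600 of 0.8 and resuspended in YPD diluted 1:20 at 22 to 25 °C. Affymetrix YG_S98 arrays, with 3 per time point and 21 in all, measured total RNA at 7 time points. In time order these were the control, sampled before drying; 18 h of drying in 9 cm dishes, called 50% dry in its label; dry, after 42 h of drying and a further 72 h at 20% relative humidity; and 15, 45, 90 and 360 min after water returned in the same diluted medium. The labels do not say whether the 3 arrays of a time point came from separate cultures, and the p-values below therefore rest on array-to-array spread that could be technical. No undried suspension was held in dilute medium for as long, so drying, the medium, the temperature and elapsed time cannot be told apart. Rehydrated cells were pooled across plates into a flask and sampled from it over time.

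Ribosomal proteins fold around the rRNAs to form the small subunit, which reads the mRNA, and the large subunit, which joins amino acids and lets the growing chain out through a tunnel. In growing yeast their mRNAs are among the most abundant in the cell, and they are known to fall together when nutrients run short or cells are stressed, under TOR and protein kinase A signalling through the factors Rap1, Fhl1, Ifh1 and Sfp1. Most of the proteins are encoded by a pair of near-identical genes, called A and B, left from an ancient duplication of the whole genome, and the copies of a pair often differ in promoter, intron and untranslated sequence.

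The deposited values are linear signals scaled to a trimmed mean of 500.2 to 500.6 on every array, and 78.6 to 81.4% of probe sets lay above a background of 29.6 on each array, set at the 95th percentile of the signals of 19 controls for sequences of another species. 72 of the 80 genes were above that level on all arrays. The highest signal on an array was 24112 to 25608 at 360 min and 6281 to 6608 in the control. The log2 ratio of the 3' to the 5' probe set of ACT1, a sign of RNA integrity, was -0.46 to -0.18 in the control, 0.56 to 0.71 at 18 h, 0.95 to 1.15 when dry and 2.28 to 2.37 at 360 min, and its part in the changes below was not tested. The arrays were scanned on 4 days: the controls with 1 array of 18 h, the other 18 h arrays with dry, 15 min and 45 min, 2 arrays of 90 min with 360 min, and 1 array of 90 min alone. Markers of sporulating cells summed to 3121 to 3344 at 18 h and 296 to 361 in the control; 4 of the 10 rose, where 36.2% of all probe sets did, 5 of the 10 were at background at 18 h, and their part in the changes was not tested. A scale set by 9 probe sets for spiked-in transcripts, tried beside the deposited one, shifts all changes of a comparison alike, by -0.29 at 18 h against control, -2.01 at 360 min against dry and -2.32 at 360 min against control on the log2 scale. These are the BioB, BioC, BioDn and CreX controls of the chip, and whether they track mRNA per cell was not tested. Markers of haploid or mating cells, which a diploid should lack, summed to 832 to 864 at 18 h and 742 to 831 in the control.

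Together the 80 genes carried 5.17 to 5.42% of the summed signal of an array in the control, 1.14 to 1.16% at 18 h, 0.742 to 0.918% when dry, 0.622 to 0.640% at 15 min, 0.725 to 0.734% at 45 min, 0.827 to 0.880% at 90 min and 1.59 to 1.61% at 360 min. Their median signal on an array was 3735 to 4030.3 in the control, 657 to 671 at 18 h, 365 to 487 when dry, 312 to 332 at 15 min and 898 to 924 at 360 min. On this scale the genes fell within 18 h, were lowest in the median at 15 min and partly returned by 360 min, as the plot of all 80 genes over time shows, but with arrays scaled by spiked-in transcripts their median at 360 min was 0.82 log2 units below the dry one, not above it. Neither scale is read here as mRNA per cell. Signals are per array and scaled to its total, so less ribosomal protein mRNA per cell and fewer cells that hold it cannot be told apart.

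**Figure D1:**
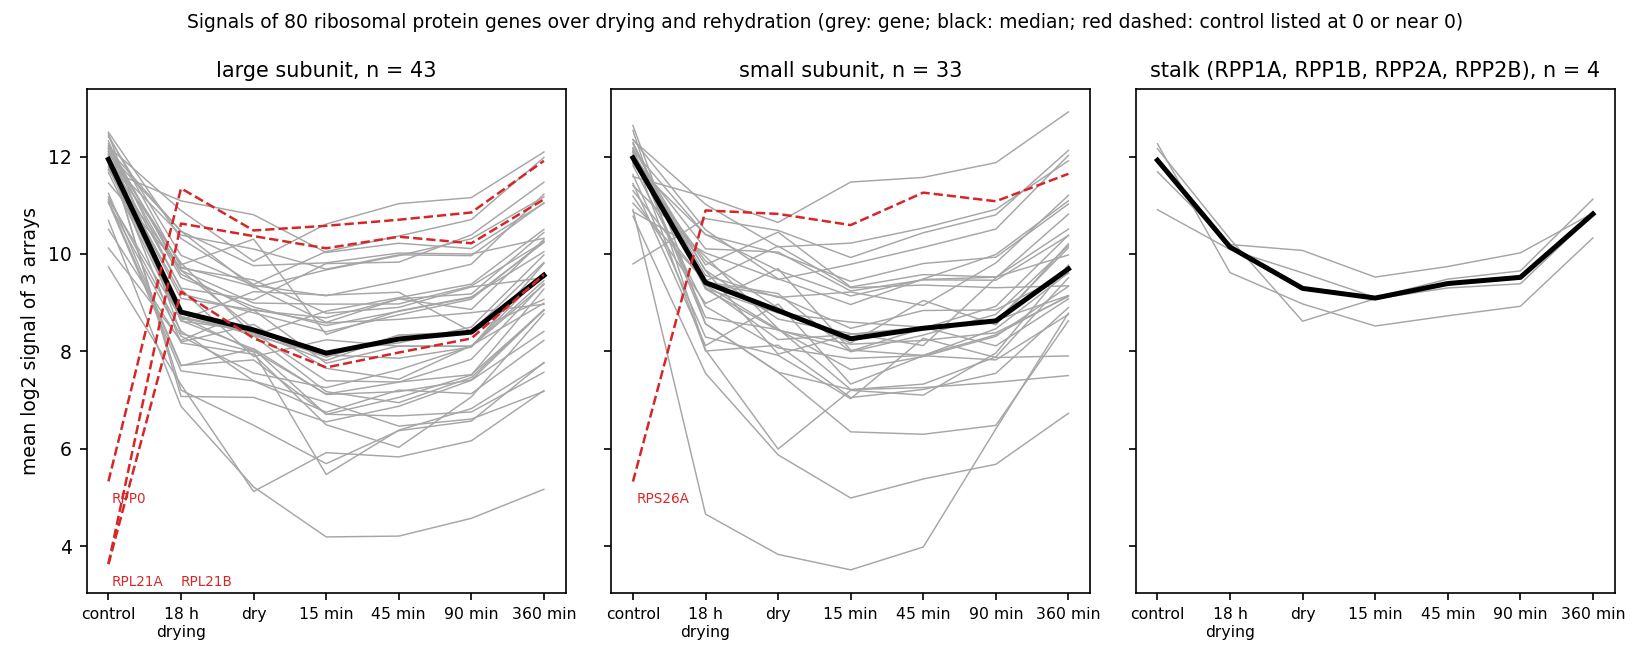
Mean log2 signal of 3 arrays (vertical axis) at the 7 time points (horizontal axis) for each of the 80 genes, in panels for the large subunit, the small subunit and the stalk; grey lines are genes, the black line is the median of those with usable control values, and the dashed red lines are RPP0, RPL21A, RPL21B and RPS26A, whose control values cannot be used. The median change of the 76 usable genes is -2.61 at 18 h against control and 1.18 at 360 min against dry on the deposited scale, while spike-in scaling puts the median of all 80 genes at 360 min against dry at -0.82.

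4 of the 80 genes cannot be set against the control, because their values there sit at or near 0 or at a level that other genes share. RPP0, the protein that anchors the stalk to the large subunit, read 2479.8, 2877 and 2487 at 18 h, against listings of 0, 154 and 151 on the 3 control arrays. The control values of RPL21A are 0, 4.1 and 164, those of RPL21B 1.9, 3.1 and 222, and the brighter of the RPS26A probe sets, which carries the suffix _i, is listed at 152, 0 and 151. The values near 151 and 153 recur on the same arrays in unrelated abundant genes: TDH3, a glycolytic enzyme, is listed at 152, 154 and 152 on one probe set, and CCW12, a cell wall protein, at 0, 154 and 151. How these values arose was not tested, and no fold or direction against the control is given from these 4 probe sets; counts against the control use the other 76 genes except where 80 are named. A second RPS26A probe set, with the suffix _f, averaged 918 at 18 h, with 3093, 2763 and 4461 in the control. The plot by array shows both.

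**Figure D2:**
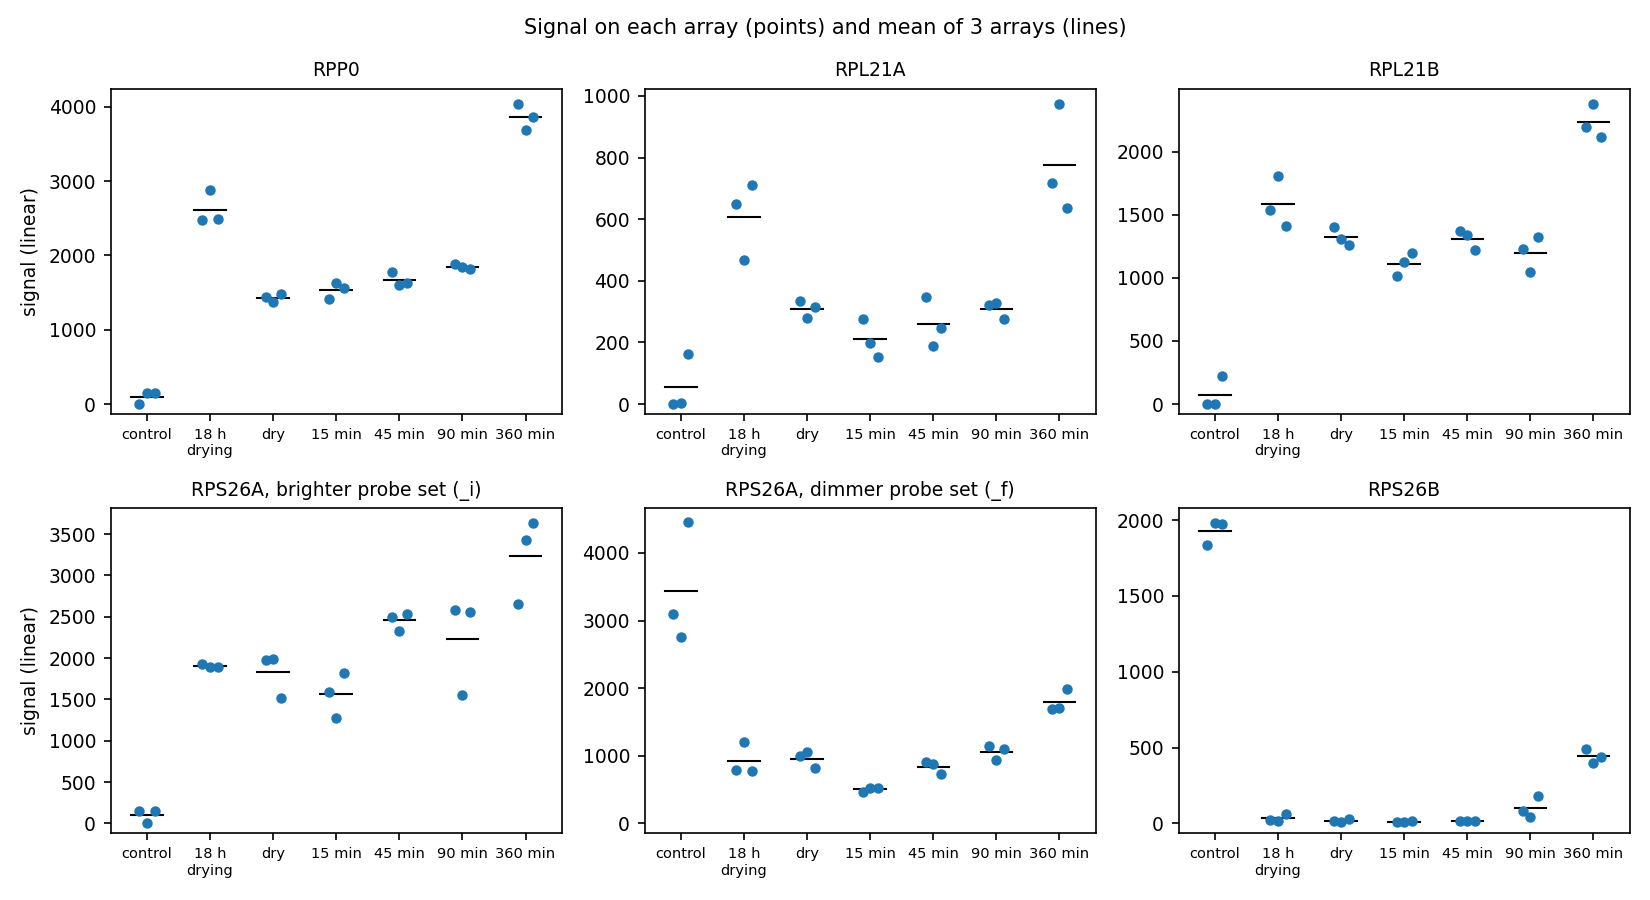
Linear signal (vertical axis) on each of the 21 arrays at the 7 time points (horizontal axis) for RPP0, RPL21A, RPL21B, both RPS26A probe sets and RPS26B; each point is 1 array. RPP0, RPL21A, RPL21B and the _i probe set of RPS26A are at 222 or lower on every control array, while the _f probe set of RPS26A is at 2763 or higher and RPS26B at 1838 or higher there.

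Between 18 h of drying and the control, 75 of the 76 genes fell and 1 rose, at limma adjusted p under 0.05 over all 9275 probe sets tested. Of all tested probe sets 27.3% fell and 36.2% rose. The median change of the 76 genes was -2.61 on the log2 scale, a 6.11-fold lower signal at 18 h, and -2.53 over all 80, while the median of all probe sets moved by 0.11. Within the 1 scan day that held both groups, a comparison that rests on a single 18 h array, the median over the 80 genes was -2.60. All 76 genes passed the moderated F test for any change over the 7 time points, as did 84.2% of all probe sets.

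The large subunit genes all fell, 40 of 40, with a median change of -2.71. RPL39 (YJL189W), a very short protein that lines the exit tunnel, read 142, 136 and 126 at 18 h, against 4185, 4433 and 4504 in the control. The groups are far apart, and the fitted change was -5.02 ± 0.16 (SE, limma adjusted p = 1.09e-13). The A copy of RPL13 (YDL082W) read 148, 147 and 148 at 18 h, against 4108, 4299.5 and 4175 in the control, a change of -4.83 ± 0.13 (SE, limma adjusted p = 1.52e-14). RPL13B also fell, with means of 419 ± 5.12 at 18 h and 5128 ± 286 in the control (SD, n = 3 each) and a change of -3.61. Further large subunit genes with no overlap between the groups were RPL27B (-4.10), RPL7B (-3.82) and RPL38 (-3.76), the last of which is known in the mouse for its part in translating developmental mRNAs. RPL3, whose protein reaches the peptidyl transferase centre, averaged 903 ± 67.5 at 18 h and 3977 ± 271 in the control (SD, n = 3 each), a change of -2.14. RPL22A and RPL22B, copies of a protein of the outer large subunit, changed by -2.98 and -2.42.

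Of the 32 usable small subunit genes 31 fell, with a median of -2.49 over the 32. RPS26B (YER131W) had the largest fitted change of the 76. Its protein sits where the mRNA leaves the small subunit, and its signal was 19.2, 13 and 64.3 at 18 h, against 1838, 1980 and 1977 in the control. Of the 18 h values 2 lie under the background, so the size rests on dim values; the fitted change was -6.26 ± 0.54 (SE, limma adjusted p = 3.43e-08). The signals of RPS22B (YLR367W) were 246, 269.7 and 269.5 at 18 h, against 5937, 6097 and 5799 in the control, a change of -4.51 ± 0.14 (SE, limma adjusted p = 1.5e-13). RPS7A (-4.08) and RPS1B (-4.07) followed. RPS31, which encodes a ribosomal protein fused to ubiquitin, averaged 1452 ± 187 at 18 h and 5234 ± 80.1 in the control (SD, n = 3 each) and changed by -1.86 ± 0.35 (SE, limma adjusted p = 0.000187).

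RPS21A (YKR057W) was the only usable gene called higher at 18 h. It read 1676, 1726 and 1684 at 18 h, against 491, 1372 and 1043 in the control, so the groups do not overlap although the control arrays spread widely, and the change was 0.93 ± 0.24 (SE, limma adjusted p = 0.00329). Its probe set carries the suffix _i. The 3 smallest falls, picked out after their values were seen, were RPS2 (-0.42), a protein of the mRNA entry channel, RPL10 (-0.63), one of the last proteins to join the large subunit, and the stalk gene RPP2B (-0.82). The 4 acidic stalk proteins, which recruit elongation factors, fell less than the median gene, apart from RPP1B at -2.65: RPP1A changed by -1.49, RPP2A by -1.85 and RPP2B by -0.82 (limma adjusted p = 0.00121). RPP2B read 1024, 1104 and 1145 at 18 h, against 1719, 2168 and 1911 in the control, with no overlap. The 17 usable genes without a duplicate had a median change of -2.07, the 29 A copies -2.71 and the 30 B copies -2.56.

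**Figure D3:**
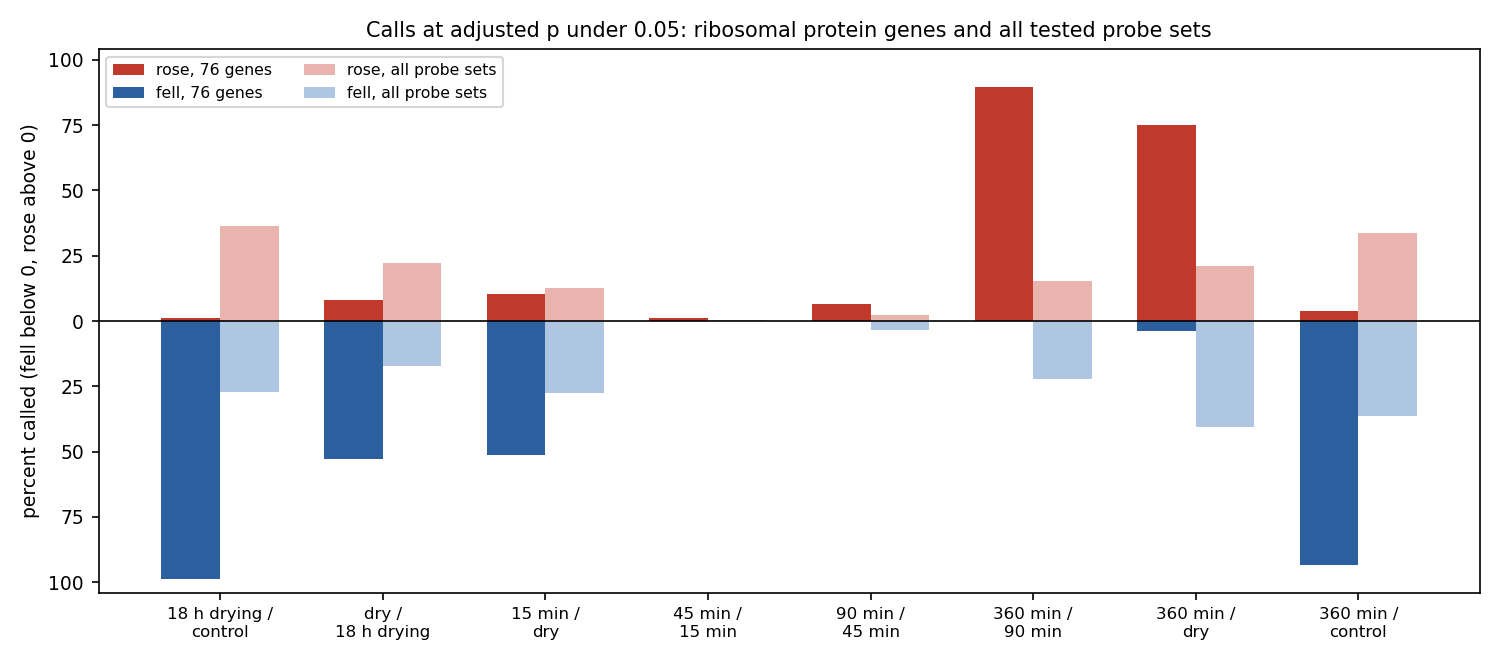
Percent called higher and lower at limma adjusted p under 0.05 (vertical axis) in 8 comparisons (horizontal axis), for the 76 ribosomal protein genes with usable control values beside all 9275 tested probe sets. At 18 h against control 75 of 76 genes fell, and at 360 min against 90 min 68 of 76 rose; scaling by spiked-in transcripts turned the median of 360 min against dry to -0.82 and that of 90 min against 45 min to -0.07.

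From partial to full dryness the genes no longer moved as one. In dry cells against 18 h of drying, 40 of the 76 fell and 6 rose, where 17% of all probe sets fell and 22.1% rose, and the median change was -0.52. Over the arrays of the 1 scan day that holds both groups the median was -0.52. RPL22B fell most, to 20.5, 40.8 and 50.4 in dry cells, against 152, 194 and 138 at 18 h, a change of -2.20 ± 0.29 (SE, limma adjusted p = 1.8e-05), and the groups do not overlap; 1 dry value lies under the background. RPS22B (-2.04), RPS7B (-1.71) and the stalk gene RPP2A (-1.69) were the next. The RPS22B value comes from its _i probe set, and its other probe sets fell less. The one without a suffix averaged 107 in dry cells and 205 at 18 h, and the _f one 249 and 460. A dimmer RPS7B probe set also fell less, averaging 333 in dry cells and 791 at 18 h. RPL3 fell by 1.49 to a mean of 324 in dry cells, against 903 at 18 h. RPS31 averaged 735 ± 187 in dry cells and 1452 ± 187 at 18 h (SD, n = 3 each), a change of -1.01 ± 0.35 (SE, limma adjusted p = 0.0303); it passed only without dry array 1 when single arrays were left out, and the adjusted p ranged between 0.027 and 0.121.

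The 6 genes that rose in dry cells were RPS28A (0.85), RPS27A (0.72), RPS21B (0.71), RPS25B (0.67), RPL15B (0.64) and RPL37B (0.53). RPS28A read 563, 404 and 558 in dry cells, against 283, 268 and 283 at 18 h, and RPS27A, a zinc-binding protein, read 1198, 1024 and 1228 in dry cells, against 696, 713 and 677 at 18 h. Every dry array exceeded every 18 h array in both. The calls of RPS21B and RPL15B depended on single arrays: RPS21B lost its call without dry array 1 or 3 or without any 18 h array (adjusted p up to 0.0764), and RPL15B without dry array 1 or 3 or 18 h array 1 or 2 (up to 0.0737).

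The first 15 min of rehydration brought a further split. Against dry cells 39 of the 76 genes were lower at 15 min and 8 were higher, with 27.5% of all probe sets lower and 12.8% higher, and the median was -0.51 where that of all probe sets was -0.18. Over the 80 genes this median depended on the scaling, at -0.12 with arrays centred on their medians, -0.22 with quantile normalization and -1.23 under spike-in scaling. All arrays of both groups were scanned on 1 day. RPL27B fell most, to 55.8, 38.4 and 40.7 at 15 min, against 259, 205 and 309 in dry cells, with a change of -2.52 ± 0.25 (SE, limma adjusted p = 2.01e-06). RPL37B (-1.96), RPS21B (-1.67) and RPS28A (-1.64), which had each risen in dry cells, fell as well; the dry arrays are shared by both comparisons. Of the stalk genes RPP1A changed by -0.55 ± 0.18 (SE, limma adjusted p = 0.0251) and RPP2B by -0.51 ± 0.19 (SE, limma adjusted p = 0.0439), and RPL39 by -0.50 ± 0.16 (SE, limma adjusted p = 0.0184). Each of these 3 calls was lost on leaving out dry array 1 or 3 or some 15 min array: 15 min array 1 or 3 for RPP1A (adjusted p up to 0.0801) and RPP2B (up to 0.195), and 15 min array 1 or 2 for RPL39 (up to 0.099).

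The 8 genes that rose within 15 min were led by RPS22B, at 138, 163 and 141 in rehydrated cells, against 52, 66.6 and 74.6 in dry cells, a change of 1.21 ± 0.14 (SE, limma adjusted p = 1.12e-05). That is its _i probe set. The RPS22B probe set without a suffix averaged 77.8 at 15 min and 107 in dry cells, and the _f one 319 and 249. RPS2, at the mRNA entry channel, read 2624, 3024 and 2927 at 15 min, against 1500.2, 1693 and 1629 in dry cells, a change of 0.83. RPL5, which carries the smallest rRNA into the large subunit, rose by 0.77, and RPL15A by 0.75. The groups do not overlap in these 4 genes. Smaller rises were those of RPL22B (0.80, with overlapping groups), RPL31B (0.68), RPL3 (0.50) and RPP2A (0.46). RPL22B lost its call without 15 min array 1 or 2 or dry array 1 (change 0.42 without the last, adjusted p up to 0.214), and RPP2A without 15 min array 1 or dry array 2 (up to 0.0695). Under scaling by spiked-in transcripts RPL3 turned to -0.22, RPL31B to -0.05 and RPP2A to -0.26.

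Little passed the test between 15 and 90 min. At 45 min against 15 min, RPL13A was the 1 gene called and none fell, with 0.27% of all probe sets higher and 0.151% lower. It read 84.2, 97.3 and 69.2 at 45 min, against 54.1, 58.6 and 43.7 at 15 min, a change of 0.68 ± 0.13 (SE, limma adjusted p = 0.0312), and lost the call without 45 min array 1 or 2 or 15 min array 3 (adjusted p up to 0.107). At 90 min against 45 min 5 genes rose and none fell, beside 2.17% of all probe sets higher and 3.31% lower. The median change of the 76 was 0.24 in the first of these comparisons and 0.28 in the second, and over the 80 genes the second turned to -0.07 under spike-in scaling. No scan day holds both 45 and 90 min, and with the day as a random block 2 genes were called, RPS22B and RPS26B.

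RPS26B was higher by 90 min, with 80.4, 42 and 181 at 90 min, against 17.1, 16.8 and 13.7 at 45 min. The 45 min values lie under the background level, so the difference is at least 3.41-fold (limma adjusted p = 0.0181), and the groups do not overlap. RPS22B (0.86), RPS29A (0.87), RPL15A (0.56) and, named after its value was seen, RPS12 (0.38) were the others. RPS26B lost its call without 90 min array 3 or 45 min array 2 or 3 (adjusted p up to 0.0757), while RPL15A (up to 0.163) and RPS29A (up to 0.129) each lost it without any 90 min array and without 45 min array 1 or 2.

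The widest step upwards on the deposited scale came between 90 and 360 min. Of the 76 genes 68 rose at 360 min against 90 min and none fell, while 15.4% of all probe sets rose and 22% fell. The median change was 1.11, against -0.02 for all probe sets, and 1.12 over the 80 genes within the scan day shared by 360 min and 2 of the 90 min arrays. By role, 35 of 40 large subunit genes rose, 29 of 32 small subunit genes and 4 of 4 stalk genes, and all 17 usable genes without a duplicate were among them. Under spike-in scaling 9 of the 80 were called higher and 5 lower, RPP1A came to -0.14, and the median was 0.14.

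RPS26B again changed most, reading 488, 401 and 439 at 360 min, against 80.4, 42 and 181 at 90 min, a change of 2.38 ± 0.54 (SE, limma adjusted p = 0.00262). RPS0B read 414, 329.8 and 454 at 360 min, against 93.1, 75.6 and 101 at 90 min, a change of 2.15. That is its _f probe set, and the RPS0B probe set without a suffix averaged 1073 at 360 min and 462 at 90 min. RPS22B (1.81), RPL16B (1.77) and RPL22A (1.72) also rose. Groups stayed apart in each of these. The 8 usable genes that did not pass, chosen after their values were seen, included RPS27A (0.04), RPS28B (0.03) and RPS14B (0.14).

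Set against dry cells, 57 of the 76 genes were higher at 360 min and 3 were lower, where 21.2% of all probe sets were higher and 40.7% lower. The median change of the 76 was 1.18, a 2.27-fold higher signal, against -0.29 for all probe sets, but spike-in scaling turned the median of the 80 genes to -0.82, with 5 higher and 49 lower. No scan day holds both groups, and with the day as a random block 54 of the 80 rose and 3 fell. 29 of the 40 large subunit genes, 24 of the 32 small subunit genes, all 4 stalk genes and 16 of the 17 usable genes without a duplicate rose on the deposited scale.

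RPS26B went furthest, to 488, 401 and 439 at 360 min, against 12.4, 8.3 and 27.9 in dry cells, where it lay at background; the rise is at least 14.9-fold (limma adjusted p = 7.85e-07). RPS22B read 901, 802 and 929 at 360 min, against 52, 66.6 and 74.6 in dry cells (3.78), and RPS22A 3910, 4456 and 4166 at 360 min, against 825, 700 and 625 in dry cells (2.55). Neither gene's groups overlap. The RPS22B value is that of its _i probe set. Its _f probe set changed by 2.06 and the one without a suffix by 0.31 (limma adjusted p = 0.0576). Large subunit genes among the 10 with the biggest rises were RPL31B (2.61), RPL15A (2.42), RPL5 (2.25) and RPL3 (2.18), and RPS2 (2.27), RPS29B (2.16) and the stalk gene RPP2A (2.19) completed them. The other stalk genes rose less, RPP1A by 0.77, RPP1B by 1.36 and RPP2B by 1.51, and each of these 3 turned negative under spike-in scaling (-1.24, -0.65 and -0.49 in that order). RPL22A (1.49), RPL39 (1.36) and RPS31 (1.60) rose too, and under spike-in scaling were at -0.52, -0.65 and -0.40.

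RPP0 can be followed here, where no control array enters the means: it read 4039, 3684 and 3859 at 360 min, against 1445, 1376 and 1476 in dry cells. Its groups lie far apart, 2.69-fold on the log scale, but the fit pools the spread of all 7 time points, the control included, and gave 1.43 ± 0.98 (SE, limma adjusted p = 0.219). The 3 genes that fell were RPS14B (-0.96), RPS27A (-0.82) and RPS25B (-0.47, adjusted p = 0.0101). RPS14B read 172, 174 and 199 at 360 min, against 369, 296 and 404 in dry cells, and RPS27A 636, 604 and 718 at 360 min, against 1198, 1024 and 1228 in dry cells. In both, every 360 min array was below every dry array, while RPS25B came to 0.05 when arrays were centred on their medians. Across the 76 genes the change at 18 h and the change from dry to 360 min gave a Pearson r of -0.14 and a Spearman rho of 0.06, a description over genes that share the scaling of their arrays.

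At 360 min nearly all genes were still below the control. Of the 76, 71 were still called lower at 360 min than in the control and 3 higher, beside 36.4% of all probe sets lower and 33.7% higher, with a median of -2.01. They were 39 of 40 large subunit genes, 29 of 32 small subunit genes and 3 of 4 stalk genes. No scan day holds both groups, and with the day as a random block the median over the 80 genes was -1.95, while spike-in scaling gave -4.28. RPL7B (-5.52), RPL27B (-4.71), RPL13A (-4.26) and RPS9A (-4.05) were lowest. RPL7B read 58.6, 25 and 31.6 at 360 min, against 1130, 2237 and 1784 in the control. Of its 360 min values 1 lies under the background. The RPL7B value comes from its _i probe set, and that of RPS9A from an _f one. The other RPL7B probe set, with the suffix _f, fell less, averaging 65.1 at 360 min and 818 in the control. The 3 that rose were RPS21A (2.33), RPS2 (1.33) and RPS22A (1.16). RPS2 read 7775, 8001 and 7468 at 360 min, against 3096, 2693 and 3505 in the control, with no overlap; under spike-in scaling it was at -0.99 and RPS22A at -1.16. RPL5 (-0.11) and RPP2B (0.22) did not pass the test.

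As a share of each gene's own control mean, the median of the 76 genes was 16.4% at 18 h, 11.2% when dry, 7.53% at 15 min and 24.8% at 360 min. The genes spread widely around it, between 1.67 and 175% at 18 h, between 0.839 and 149% when dry and between 2.24 and 462% at 360 min. 17 genes were under 10% at 18 h, 36 when dry, 46 at 15 min and 10 at 360 min. The lowest mean came at 15 min in 46 genes, when dry in 15, at 45 min in 12, and once each at 90 min (RPL36A), at 18 h (RPL15B) and in the control (RPS21A). Above 100% at 360 min stood RPS21A at 462%, RPS2 at 250.1%, RPS22A at 223% and RPP2B at 116%.

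The copies of a pair were compared by the log2 ratio of A over B within each array, so that scaling cancels, and by how that ratio changed; the ratio itself is not read as a level, since the copies have different probes. Of 29 pairs usable at 18 h against control, the ratios of the 2 groups did not overlap in 20 (69% of pairs), and the median size of the change was 0.87. It passed 2-fold, 1 on the log2 scale, in 13 pairs. Pairs of unrelated probe sets were not counted in this way, so the shares of pairs here and below have no baseline. With 3 arrays a group the two-sided exact permutation test cannot give less than p = 0.1, which every pair without overlap reached, so no pair can pass 0.05. In 28 of the 29 pairs both copies fell, and RPS21 was the exception. Among these 20 the A copy fell more in 12 and the B copy in 8. The 12 pairs with no suffix on either probe set had a median size of 1.02 and 11 of them did not overlap, and the 17 with a suffix had a median of 0.44.

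RPS22, a protein of the small subunit body, had the widest split. RPS22A read 935, 1223 and 984 at 18 h, against 1851, 1884 and 1882 in the control, and RPS22B, given above, lost most of its signal, so the ratio changed by 3.66, with an SD over 3 arrays of 0.17 at 18 h and 0.04 in the control. In RPS21 the A copy rose and RPS21B, at 496, 516 and 508 at 18 h, against 2870.1, 2510.3 and 1759 in the control, fell, a ratio change of 3.13, with an SD of 0.01 at 18 h and 1.00 in the control. At 18 h the _f probe set of RPS22B changed by -3.06 and the one without a suffix by -3.46, against -4.51 for the _i one used. RPS22B and both RPS21 copies are read from probe sets with the suffix _i. RPS10 (-1.50) and RPL27 (1.35) were next among such pairs.

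Of the pairs with no suffix, RPL16 split most, by 1.84, with an SD over 3 arrays of 0.28 at 18 h and 0.15 in the control. RPL16A read 1289, 1632 and 1349 at 18 h, against 4319, 4941 and 4448 in the control, and RPL16B 428, 368 and 394 at 18 h, against 3848, 5123 and 4871 in the control. Both fell, and the B copy lost the larger part of its signal. In RPS7 the A copy lost more, as RPS7A changed by -4.08 and RPS7B by -2.53, a ratio change of -1.55. RPL13 (-1.22), RPL37 (-1.06), RPS14 (-1.01), RPL24 (-1.005) and the stalk pair RPP2 (-1.03) also moved towards B, and the stalk pair RPP1 (1.15) towards A. The smallest changes without a suffix were those of RPS27 (-0.15), RPL22 (-0.56), RPL15 (-0.81) and RPL6 (-0.83). The plot of A against B shows these pairs around the line of equal change.

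**Figure D4:**
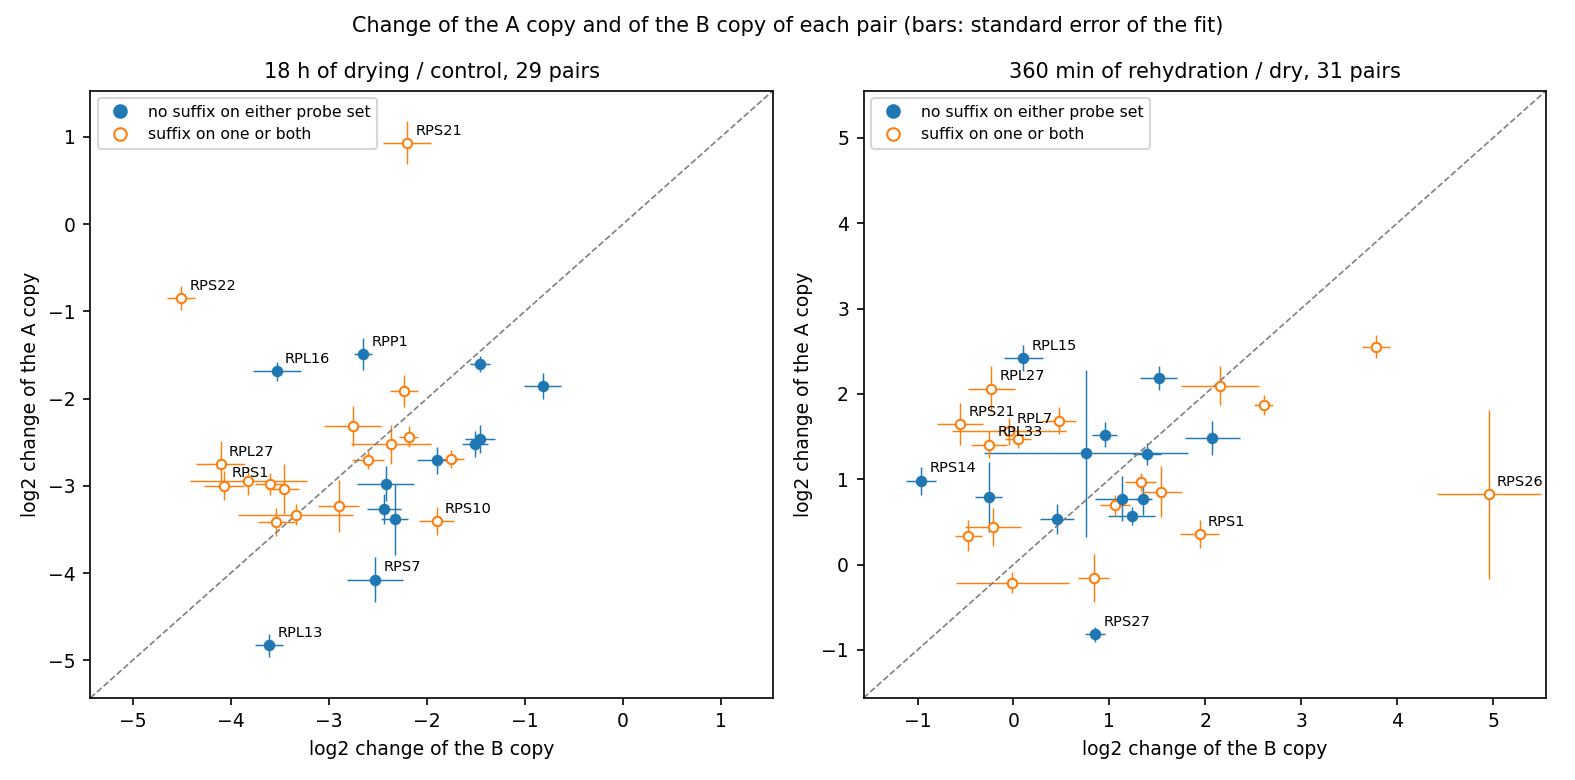
Log2 change of the A copy (vertical axis) against that of the B copy (horizontal axis), with SE bars. The panels hold 29 pairs at 18 h against control and 31 pairs at 360 min against dry. Filled blue points have no suffix, open orange points have one, and the dashed line marks equal change. RPS22 and RPS21 lie far from the line at 18 h, where the ratio changed by 3.66 and 3.13, and RPL15 and RPL27 at 360 min; RPS26 lies far from it too, but with RPS26B under the background when dry its place there is only a bound.

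The ratios were compared after 18 h as well, again with no baseline from pairs of unrelated probe sets. In dry cells against 18 h, 19 of 31 pairs did not overlap (61.3%), led by RPS7 (1.83), RPL22 (1.69), RPS22 (1.49), RPS27 (1.46) and RPL9 (1.38). At 15 min against dry cells 16 of 31 did not (51.6%), led by RPL27 (2.22), RPS7 (-1.48) and RPL16 (1.40), and at 360 min against 90 min 18 of 31 (58.1%). The pairs named in these comparisons were chosen by size after their values were seen. The suffix _i is on the probe sets of RPS22B, RPL27A and both RPL9 copies. The other probe sets of RPS22B fell less from 18 h to dry than the _i one, as given above. From dimmer probe sets without a suffix, RPS7A averaged 205 in dry cells and 273 at 18 h, and RPS7B 333 and 791. That is a smaller shift towards A than 1.83. RPL22B was dim in dry cells, at 20.5, 40.8 and 50.4. Over the whole return, 360 min against dry, 24 of 31 pairs did not overlap (77.4%), 13 passed 2-fold and the median size was 0.74.

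In RPS14, which binds near the platform of the small subunit, the copies were called in opposite directions between dry and 360 min. RPS14A read 1186, 1118 and 1152 at 360 min, against 607, 475 and 688 in dry cells, and rose by 0.98, while RPS14B, given above, fell by 0.96, so the ratio changed by 1.94. RPS27 went the other way: RPS27B read 1435, 1508 and 1435 at 360 min, against 814, 717 and 909 in dry cells, and rose by 0.85, RPS27A fell, and the ratio changed by -1.67. Neither pair has a suffix on its probe sets, and the ratios of the groups do not overlap in either. RPL15 had the widest split without a suffix, 2.31: RPL15A read 2783, 3172 and 2606 at 360 min, against 444, 649.6 and 525 in dry cells, and RPL15B 710.3, 416 and 423 at 360 min, against 512, 406 and 486 in dry cells. RPL15A rose and RPL15B did not pass the test, with a change of 0.10 ± 0.21 (SE, limma adjusted p = 0.689). RPL37 (1.05), RPP2 (0.67), RPL16 (-0.67), RPP1 (-0.59) and RPL22 (-0.59) followed, and RPL6 (0.08), RPL13 (-0.10), RPS7 (-0.36) and RPL21 (0.55) changed least. The direction for RPS7 depended on the probe set. Its dimmer probe sets, also without a suffix, changed by 1.35 for RPS7A and 0.77 for RPS7B, a shift towards A. RPS26 gets no value, since RPS26B lay under the background in dry cells, and among the other pairs with a suffix the widest were RPL27 (2.29), RPS21 (2.20) and RPL33 (1.66).

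Relative to the control, the A over B ratio took different courses, with all values sharing the same control arrays. The RPS22 ratio stood 3.66 higher at 18 h, 5.15 when dry and 3.92 at 360 min. It rests on the _i probe set of RPS22B. The one without a suffix averaged 107 when dry and 135 at 360 min, while RPS22A averaged 717 and 4177. A ratio read from that probe set would rise, not fall, from dry to 360 min. For RPL16 the ratio change was 1.84 at 18 h, 3.12 at 15 min and 1.05 at 360 min, and for RPL13 -1.22 at 18 h, -1.24 when dry and -1.33 at 360 min. For RPS14 it was -1.01 at 18 h, 0.24 when dry and 2.18 at 360 min, and for RPS1 1.07 at 18 h, 1.56 when dry and -0.02 at 360 min. At 360 min 23 of the 29 pairs did not overlap with the control (79.3%) and 14 had moved over 2-fold, as the map of ratio changes shows.

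**Figure D5:**
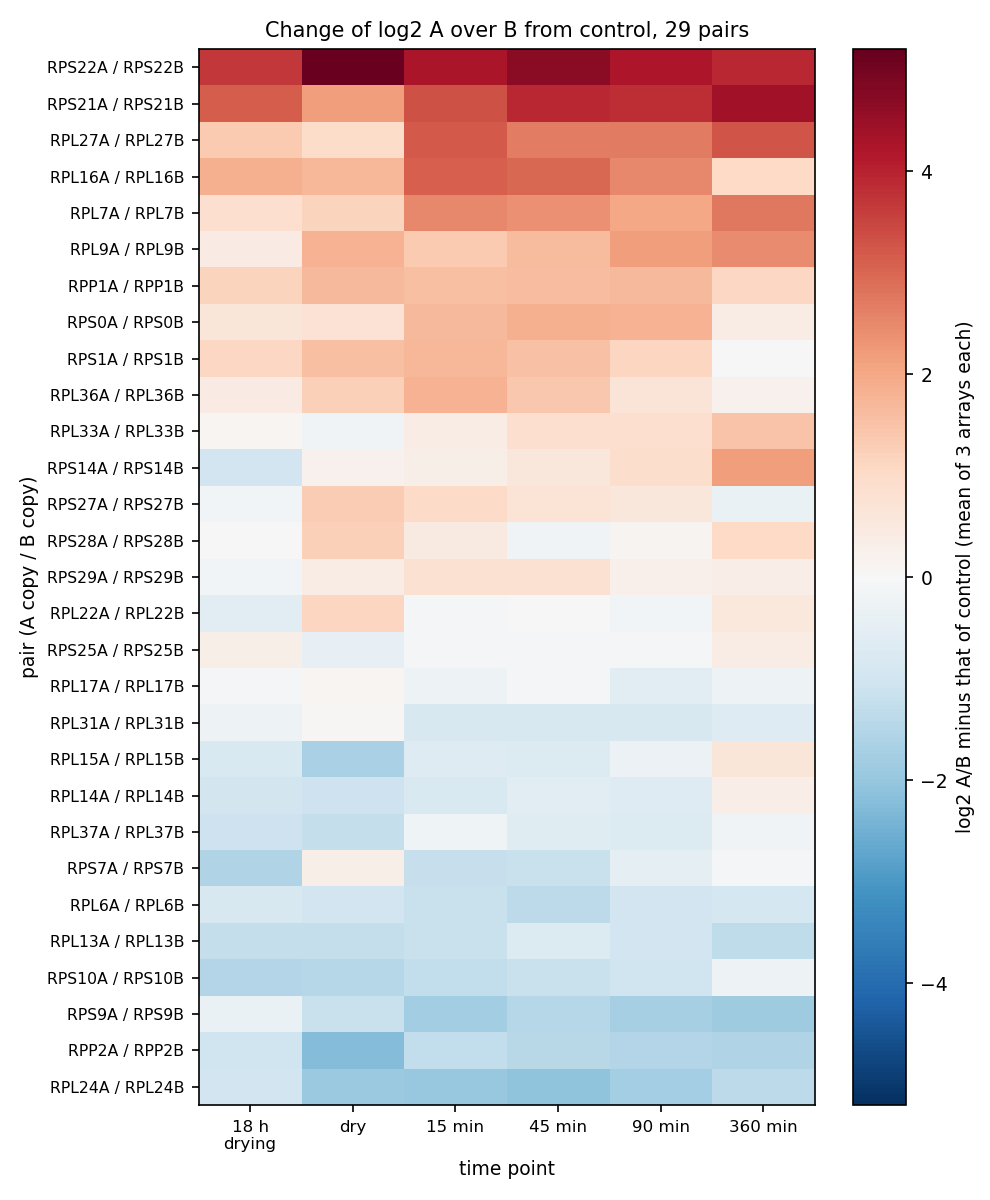
Change of the log2 ratio of A over B from the control mean (colour, with its scale in log2 units) for 29 pairs (vertical axis) at the 6 later time points (horizontal axis), as means of 3 arrays; red and blue mark a shift towards A and towards B. RPS22 stays on the A side, up to 5.15 when dry, while RPS14 is at -1.01 at 18 h, 0.24 when dry and 2.18 at 360 min. RPS22B is read from its _i probe set alone.

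The reading of a gene depended on its probe set in places. 21 of the 80 genes have more than 1 probe set, and in 4 (RPL17A, RPP1B, RPS0B and RPS26A) the fit called the probe sets in opposite directions at 18 h against control, RPS26A through the control values that cannot be used. The brightest probe set of RPS0B changed by -3.60, while its dimmer one averaged 1061 at 18 h with 98.2, 348 and 467 on the control arrays, a change of 2.08. For RPP1B the values were -2.65 and 2.36, and for RPL17A -2.71 and 2.49. The dimmer probe sets of RPL17A and RPP1B hold the recurring values near 151 and 153 on the control arrays. For RPS26A the _f probe set fell by 1.91 at 18 h. The RPS22B probe set without a suffix averaged 107 when dry, 77.8 at 15 min, 97.5 at 45 min, 99.4 at 90 min and 135 at 360 min. The rises and falls given above for RPS22B come from its _i probe set, except where another is named. The 59 probe sets that both copies of a pair share, which cover 37 pairs, fell in 55 cases and rose in 1 at 18 h, with a median of -2.34; at 360 min against dry cells 48 rose and 3 fell. Genes with no suffix fell in 45 of 45 cases at 18 h with a median of -2.44, and those with a suffix in 30 of 31 with a median of -2.75.

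Other genes of the pathway were read from lists chosen for their known roles. Of 17 regulators of ribosomal protein genes, 10 rose and 2 fell at 18 h against control, where 36.2% of all probe sets rose and 27.3% fell. CRF1, a corepressor that competes with Ifh1, averaged 1153 ± 36.9 at 18 h and 27.5 ± 4.47 in the control (SD, n = 3 each), a change of 5.40, and the repressor STB3 (2.001) and the kinases SCH9 (2.75) and RIM15 (1.78) rose. HMO1 (-0.70) and ABF1 (-0.52), which bind many of these promoters, fell, and RAP1 did not pass (-0.31, limma adjusted p = 0.0638). At 360 min against dry cells 11 of the 17 fell, where 40.7% of all probe sets fell and 21.2% rose, among them TOD6 (-2.06), CRF1 (-1.97), ABF1 (-1.94) and IFH1 (-1.31), and DOT6 (0.79) rose.

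A list drawn up for chaperones and escorts of ribosomal proteins holds 11 genes, not all of them escorts of a single protein. Of these, 8 fell and 2 rose at 18 h against control, beside 27.3% of all probe sets lower and 36.2% higher. RRB1, the escort of Rpl3, changed by -4.23, YAR1, of Rps3, by -2.21, SQT1, of Rpl10, by -1.91 and TSR4, of Rps2, by -1.53; RRP14 (1.35) and LOC1 (0.45) rose. At 360 min against dry cells none of the 11 rose and 7 fell, with 21.2% of all probe sets higher and 40.7% lower; TSR4 changed by -1.64 while RPS2, which its protein escorts, changed by 2.27. Of 12 factors bound to mature ribosomes 10 fell and none rose at 18 h against the same shares of all probe sets, with SSZ1 (-2.82) and ZUO1 (-2.73), a chaperone pair at the tunnel exit, NAT1 (-2.27), an N-terminal acetyltransferase subunit, and ASC1 (-1.79), a scaffold on the small subunit, the first 4 by adjusted p. At 360 min against dry cells NAT1 (1.23), ASC1 (1.14) and EGD2 (0.42) of these rose and 6 fell.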

How the data were processed

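Affymetrix YG_S98 arrays measured total RNA of BY4743 at 7 time points, 3 arrays each, grouped by their titles. The deposited value of a probe set is a linear intensity; per the labels, signals came from the GeneChip Expression Analysis Software, a Wilcoxon signed-rank step and a two-step linear mixed model with unstated terms. Per the file headers, the run records give the scan days used as batches. No genome build is given in the sources used here, and the sequence of no probe is printed.

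Signals under 2.8, the 5th percentile of positive values, were set to it and log2-transformed. The limma 3.58.1 package in R 4.3.3 fitted 1 mean per time point to 9275 probe sets (60 chip controls left out), and eBayes p-values were adjusted by Benjamini-Hochberg within each comparison, with calls under 0.05. The fit was tested on simulated arrays with known changes. Gene symbols came from the platform annotation, and all 80 matched the RefSeq gene table. A gene was read from its probe set of highest mean signal. The number of arrays limits the precision. Members, lists and named genes were chosen with earlier results of these data known: named were the 10 largest changes each way at 18 h and at 360 min against dry, the 4 largest elsewhere, members that moved against the majority, and a fixed set (RPL3, RPL39, RPS31 and the RPS26, RPL22 and stalk genes). Replicate numbers were not used to pair samples in the main fit. Same-numbered arrays had deviations correlated between -0.13 and 0.09 over 63 pairs of arrays. Such correlations cannot show whether these arrays shared a culture, so pairing is not known. Alternatives covered the scaling, the floor, the filter, scan day, the probe set and single arrays left out.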

Additional observations from a re-analysis of the deposited data

Results flagged for a closer look

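A control probe set for the 25S rRNA, which none of the comparisons uses, was well above its level in the control: its mean over the 15 dry and rehydrated arrays was 6238, and its group means were 292 in the control, 278 at 18 h, 2962 when dry, 6067 at 15 min, 7503 at 45 min, 6400 at 90 min and 8259 at 360 min. The control arrays read 355, 272 and 248. The other 25S probe sets did not all follow it: 25S e averaged 380 in the control, 6008 at 15 min and 332 at 360 min. At 360 min 25S b, c and d averaged 61.8, 5.03 and 29.8.

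On 90 min array 2, an 18S rRNA control probe set read 9912, against 95.9 and 122 on the other 90 min arrays. The remaining 18S probe sets were raised there too, at 322, 111, 129.5 and 172, as were 25S b, c and d at 593, 319 and 241. The 25S probe set of the paragraph above was not, at 4512 against 8072.5 and 6617.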

How the results depend on the processing

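Across the alternatives, 318 summary values stayed within their limits, 50 moved and 2 turned; of single-gene values 3083 stayed, 57 moved, 31 gained a call, 113 lost one and 14 turned. The scale set by spiked-in transcripts moved most. It turned the median of 360 min against dry (1.18) to -0.82 with 49 of the 80 genes lower, and that of 90 min against 45 min (0.26) to -0.068. It gave medians of -2.81 at 18 h, -1.23 at 15 min against dry, 0.14 at 360 min against 90 min, where 17.5% of genes were called in place of 85%, and -4.28 at 360 min against control. The medians of 18 h against control (-2.53) were -3.04 with quantile normalization, -2.67 with median centring, -2.45 with 50 added, -2.60 with the scan day as a block or within a day, -2.43 with probe sets averaged, -2.37 without suffixes, -2.39 with the dimmest probe set and -2.61 without the 4 unusable genes. Those of 15 min against dry (-0.50) were -0.22 with quantile normalization and -0.12 with median centring; of 360 min against dry 1.52 and 1.71; of 360 min against control (-1.96) -1.76 with median centring, -1.77 without suffixes and -1.89 with the dimmest probe set.

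The percent of genes called fell to 18.75% in place of 57.5% for dry against 18 h, and to 18.75% in place of 58.75% for 15 min against dry, when a 2-fold change was also asked. For 45 min against 15 min (1.25%) it was 0% under spike-in scaling, with only the 2 groups compared, or with 2-fold; 3.75% with a higher floor or an intensity trend; 2.08% without suffixes; and 2.5% with 50 added, without dim probe sets, with a scan-day block, with averaged probe sets or with the dimmest probe set. For 90 min against 45 min (6.25%) it was 2.5% under spike-in scaling or with scan day as a random block, 10% with 50 added or an intensity trend, 0% with only the 2 groups and 1.25% with 2-fold.

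With single arrays left out, the percent of all 80 genes called, the 4 with unusable control values included, was 100% at 18 h, 48.75 to 57.5% for dry against 18 h, 48.75 to 61.25% at 15 min, 0 to 2.5% at 45 min, 1.25 to 10% at 90 min, 78.75 to 83.75% at 360 min against 90 min, 70 to 73.75% against dry and 97.5% against control. The medians were -2.57 to -2.52, -0.58 to -0.46, -0.62 to -0.43, 0.22 to 0.24, 0.20 to 0.27, 1.10 to 1.13, 1.06 to 1.23 and -1.97 to -1.95 in that order, and pairs without overlap numbered 21 to 24 at 18 h and 24 to 27 at 360 min against dry; leaving out an array can only keep or raise that number.

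Single genes turned under spike-in scaling were RPL3 (-0.22), RPL31B (-0.050) and RPP2A (-0.26) at 15 min, RPP1A (-0.14) at 360 min against 90 min, RPL22A (-0.52), RPL39 (-0.65), RPP1A (-1.24), RPP1B (-0.65), RPP2B (-0.49) and RPS31 (-0.40) against dry, and RPS2 (-0.99) and RPS22A (-1.16) against control; RPS25B against dry came to 0.054 with median centring, and RPP1B against control to 0.56 with averaged probe sets. The cause was not tested. With the replicate number as a block, the percent called in the 8 comparisons in the order above was 100, 60, 56.25, 1.25, 5, 85, 75 and 97.5. Whether that number pairs samples is not known. Differences of the A over B ratio between same-numbered arrays all shared a sign in 26 pairs at 18 h against control and 24 at 360 min against dry. That is another measure than overlap of the groups. The scan day could not be fitted as a fixed block for 90 min against 45 min and for 360 min against dry or control, since no day holds both groups. Where all arrays of a time point lie under the background of 29.6, as for RPS26B when dry and at 45 min, there is only a bound.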
